A study of Mus musculus with 44 samples.

Results

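The genes described are 38 members of the machinery that lengthens, binds, shortens and removes mRNA poly(A) tails, and of the miRNA pathway that uses it. They were taken by symbol from the RefSeq rows of the per-sample files. No measured value entered that rule, but the list was chosen with earlier results of these data known. They make up 38 of 17158 accessions listed there, of which 17006 carried a symbol. By role they are 10 subunits of the CCR4–NOT deadenylase and its partners, 3 other deadenylase genes (Pan2, Pan3, Parn), 3 poly(A)-binding proteins (PABPs), 4 CPEB genes with Pum2, 2 poly(A) polymerases, 6 Argonaute and TNRC6 genes, Dicer1 with Drosha, and 7 genes of decapping and 5′ decay.

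RNA level (by RNA-seq), ribosome-protected fragments (RPFs, by ribosome profiling) and poly(A)-tail length had been measured in brain tissue and cultured cortical neurons of C57BL/6J mice. The tissues were hippocampi of embryos at embryonic day 16, and the hippocampus and the cortex of an adult male. Cultures were made from pooled cortices of newborn pups of both sexes and kept with cytosine arabinoside, which kills dividing cells. At 14 days in vitro (DIV14) they were left unstimulated, given the growth factor BDNF for 30 min, or given glutamate plus glycine (glu/gly) for the same time, and at DIV10 they were unstimulated or treated with KCl for 10 or 30 min. Other cultures were transduced at DIV5 with a lentivirus that expressed GFP, or GFP with miR-1 or miR-155 in its 3′ UTR, from a synapsin promoter, which restricts expression to neurons, and were collected at DIV14. Each of these 12 samples had 1 library per assay, and the ribosome-profiling libraries of the miR-1 and miR-155 cultures have labels that contradict each other and were left out of all comparisons. For visual cortex, tail libraries came from 8 mice of 6 to 7 weeks that had been housed for 1 week in the dark, of which 4 stayed dark and 4 saw light for 1 h. Tails were measured with PAL-seq v2 in the hippocampi and visual cortex and with TAIL-seq elsewhere, and RNA for sequencing was poly(A)-selected for the hippocampi but depleted of ribosomal RNA for the adult cortex and 6 cultures.

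A poly(A) tail is bound by PABP and is shortened in the cytoplasm, mainly by PAN2–PAN3 and CCR4–NOT. Once short, the mRNA loses its cap and is degraded from the 5′ end by XRN1. Regulators join this pathway at defined points. Pumilio proteins and the Argonaute–TNRC6 complex loaded with a miRNA recruit CCR4–NOT to sites in 3′ UTRs, whereas CPEB proteins bind cytoplasmic polyadenylation elements, hold dendritic mRNAs silent and can promote tail lengthening after synaptic stimulation.

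Sequences that could place the members among the targets of this pathway are shown here, and a later comparison uses the miR-155 matches. The first is the miRNA expressed in one of the cultures, with its seed (bases 2 to 8) in capitals, from chr16:84714143-84714165 on the plus strand of RefSeq GRCm38.p6.
mmu-miR-155-5p: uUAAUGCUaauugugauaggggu

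Matches to this seed were searched in the annotated 3′ UTRs as AGCATTAA (8mer), AGCATTA (7mer-m8) or GCATTAA (7mer-A1), on the transcript strand only. Of the 38 members, 5 (13.2%) held at least 1, against 11.8% of 17004 genes. Matches in 4 members are shown 5′ to 3′ in capitals, with 10 bases before the match and at least 10 after it, and Dcp2 held others.
Cnot4 (8mer, chr6:35044168-35044195, minus strand): attagaactcAGCATTAAaacttctgta
Cnot6l (7mer-A1, chr5:96071142-96071169, minus strand): ttgtttcctgGCATTAAgatgattaatt
Papola (7mer-A1, chr12:105837089-105837116, plus strand): agcgacagctGCATTAActactcagaaa
Papola (7mer-A1, chr12:105838446-105838473, plus strand): ctgaagctatGCATTAAttaaggctttc
Tnrc6b (7mer-m8, chr15:80930834-80930861, plus strand): tctctcgctgAGCATTAcctgtgccagg
Tnrc6b (7mer-m8, chr15:80933135-80933162, plus strand): tttaaatatgAGCATTActaaaggaaaa

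The second is the Pumilio motif, TGTANATA, searched in the same strand and region. It was in the 3′ UTR of 17 of 38 members (44.7%) and in 23.3% of all genes. The members also had longer 3′ UTRs, with a median of 2099 nt against 915 nt. Among 3′ UTRs of 915 to 1907 nt, 8 of 9 members held the motif (88.9%) against 26.7% of all genes. Among longer ones 9 of 20 members did (45%) against 48.0%. Among shorter ones none of the other 9 did, against 5.22% of all genes up to 356 nt and 13.2% from 356 to 915 nt. Pum2, which encodes a Pumilio protein, held 2 copies in its own 3′ UTR, and copies in the mRNAs of Cpeb1 and of the deadenylase subunit Cnot7 are shown beside them.
Pum2 (chr12:8750155-8750182, plus strand): tttatagagaTGTATATAgaattatagt
Pum2 (chr12:8750408-8750435, plus strand): tgtacagaatTGTATATActtataattg
Cpeb1 (chr7:81347544-81347571, minus strand): gagcagctgcTGTATATAgttttaaatg
Cnot7 (chr8:40493921-40493948, minus strand): cacacatgctTGTATATAggttttatca
Cnot7 (chr8:40492554-40492581, minus strand): ttaaagctttTGTAAATAaaggcttcaa
These matches describe letters only, and binding was not measured.

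The depth of the libraries set what could be said of each member. Reads or tags on genes ran from 448022 to 7689624 in RNA-seq, from 2812215 to 23212489 in the 10 ribosome-profiling libraries compared, from 389654 to 1057812 in TAIL-seq, from 86841 to 221876 in the PAL-seq libraries of the hippocampi and from 1233538 to 4812273 in those of visual cortex. The median member had 621.5 RNA-seq reads in embryonic hippocampus, 404.5 in adult hippocampus, 102.5 in adult cortex and 20 in the unstimulated DIV14 culture. Neuronal markers (Rbfox3, Snap25, Syt1, Map2 and Stmn2 summed) stood between 1660 and 3806 RPM of the reads on listed genes in all 12 samples, and 1 to 3 of 5 oligodendrocyte markers were at 0 in each culture. Summed astrocyte markers stood at 742 to 1687 RPM in the cultures, with none at 0. In adult cortex, adult hippocampus and embryonic hippocampus they were at 835, 1208 and 357. Because the tissues and cultures had 1 library per condition, their differences carry 95% intervals for counting error only, and no test. In bulk RNA, fewer cells of a type cannot be told apart from less RNA per cell.

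Levels of different members were compared as RPKM, taken over the counted open reading frame and the reads on listed genes. In the unstimulated DIV14 culture the highest was Cnot7, a catalytic subunit of CCR4–NOT, at 160.5, followed by Pum2 at 116.0 and by Ddx6, the helicase that links deadenylation to decapping, at 115.0. The lowest was Ago3 at 1.55, from 2 reads. Within roles the spread was wide. In CCR4–NOT the lowest was Cnot3, a structural subunit, at 3.56 (4 reads). Among the other deadenylases, Parn stood at 21.5 and Pan2, the catalytic subunit of PAN2–PAN3, at 4.43. Nuclear Pabpn1 led the PABPs at 52.6, and Pabpc4 was lowest at 7.12. Of the canonical poly(A) polymerases, Papola stood at 51.6 and Papolg at 16.3. Tnrc6c, which encodes a scaffold that joins Argonaute to CCR4–NOT, was the highest of the Argonaute and TNRC6 group at 15.6, and Drosha, the nuclear miRNA-processing enzyme, stood at 28.5 against 13.9 for Dicer1. The decapping group ran from Ddx6 down to Dcp1a at 3.35, a decapping cofactor with 3 reads.

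**Figure D1:**
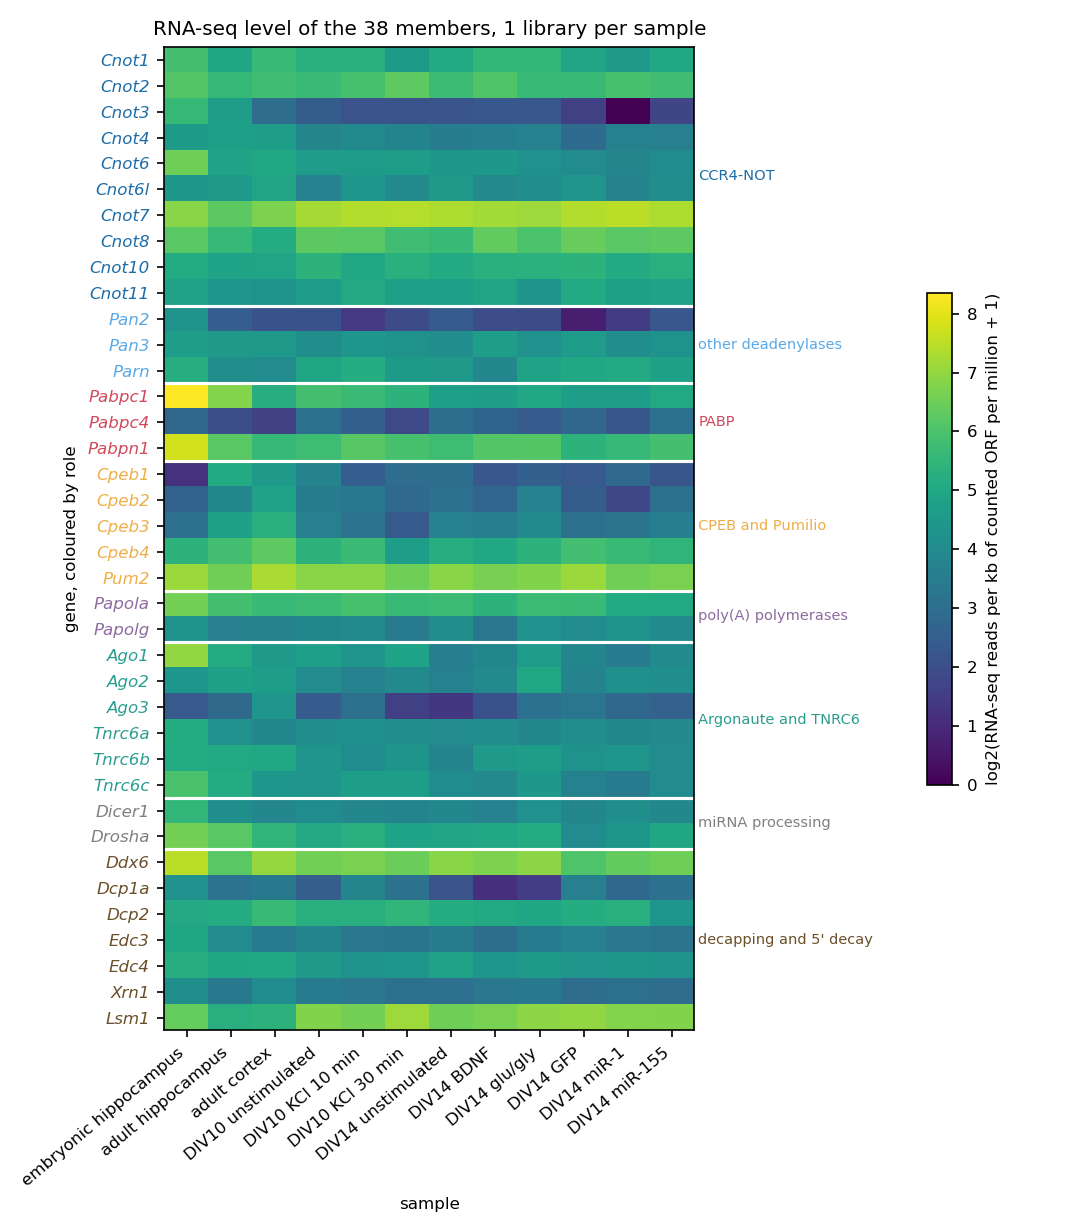
RNA-seq level of each member (rows, grouped and coloured by role) in each of 12 samples (columns, 1 library each), as log2 of RPKM plus 1. Cnot7, Pum2, Ddx6 and Lsm1 are bright in most samples, Pabpc1 and Pabpn1 are brightest in embryonic hippocampus, and Cpeb1 is darkest there.

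This order changed with the sample. Pabpc1, the main cytoplasmic PABP, was the highest member in embryonic hippocampus at 326 RPKM, and stood at 110.9 in adult hippocampus, 36.2 in adult cortex and between 23.9 and 57.7 in the 9 cultures. Pabpn1 followed the same order with 220.7, 73.6, 47.0 and 41.6 to 72.4. Cnot7 was highest in the cultures, at 138 to 178, against 114.8 in embryonic hippocampus, 74.8 in adult hippocampus and 103.5 in adult cortex. Lsm1, part of the ring that binds shortened tails and activates decapping, ran from 89.3 to 138 in the cultures and stood at 37.5 and 39.9 in the adult tissues. Cpeb1, the founding CPEB, was the lowest member in embryonic hippocampus at 1.27, and stood at 33.6 in adult hippocampus and 22.1 in adult cortex, with 3.76 to 12.3 in the cultures. The heat map of levels shows these as opposite ends of the embryonic column.

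Adult and embryonic hippocampus were compared to ask how the machinery differs between a developing and a mature tissue. Cpeb1, Cpeb2 and Cpeb3 were higher in the adult, and the share of members that were lower was close to that of all genes. In RNA-seq, 3 of 38 members were at least 2-fold higher with an interval that excluded no change (background 22.1% of 12884 genes) and 11 were lower (background 26.4%). The median log2 ratio was −0.65 for the members and −0.23 for all genes. Both libraries were poly(A)-selected.

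All 3 members that were higher were CPEB genes. Cpeb1 had 401 reads in the adult and 16 in the embryonic library, a 26.5-fold ratio (16.1 to 46.8). Cpeb3 had 408 and 119 reads (3.62-fold, 2.95 to 4.48), and Cpeb2 had 300 and 122 (2.60-fold, 2.10 to 3.23). Cpeb4, with 885 and 686 reads, did not reach 2-fold. Pum2, the other sequence-specific regulator in this group, had 2138 and 3269 reads, a log2 ratio of −0.53.

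RPFs gave wider differences in the same direction for the CPEBs. Cpeb3 had 2932 RPFs in the adult and 160 in the embryo, a log2 ratio of 4.30, and Cpeb2 had 1146 and 199, a log2 ratio of 2.63. For Cpeb1 the adult library held 1160 RPFs and the embryonic library 0, so that its RPFs were at least 414-fold higher in the adult when the embryonic library is set at a floor of 3 counts. Footprints on CPEB mRNAs thus differed more than the mRNAs did in each of the 3 genes. Of the 38 members, 4 were higher in RPFs (background 30.3%) and 19 lower (background 33.5%). Pabpc4, an inducible cytoplasmic PABP, was the other member with more RPFs in the adult, 291 against 125, although its RNA-seq reads were 43 against 89.

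Among the 11 members that were lower in adult RNA, the deadenylases Pan2 (3.95-fold, 3.23 to 4.87), Cnot6 (3.31-fold, 2.92 to 3.75), Parn (2.13-fold, 1.82 to 2.51) and the scaffold Cnot1 (2.01-fold, 1.89 to 2.13) were from 3 complexes. Cnot1 sat at the limit of the call. The PABPs Pabpn1 and Pabpc1 were 3.00-fold (2.70 to 3.34) and 2.94-fold (2.78 to 3.12) lower. Ago1, 1 of the Argonautes that carry miRNAs, was 3.68-fold lower (3.37 to 4.02), with 636 reads against 2472, whereas Ago2 had 487 against 393 and Ago3 117 against 79. Dicer1, which cuts miRNA precursors, was 2.67-fold lower (2.44 to 2.91), and Ddx6, Dcp1a and Lsm1 of the decapping group were 2.44-fold (2.24 to 2.65), 2.20-fold (1.74 to 2.80) and 2.18-fold (1.71 to 2.80) lower. By role, the median log2 ratio of RNA was 1.38 for the CPEBs and Pum2, −0.45 for the Argonaute and TNRC6 genes, −0.59 for CCR4–NOT, −0.97 for decapping and −1.56 for the PABPs.

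**Figure D2:**
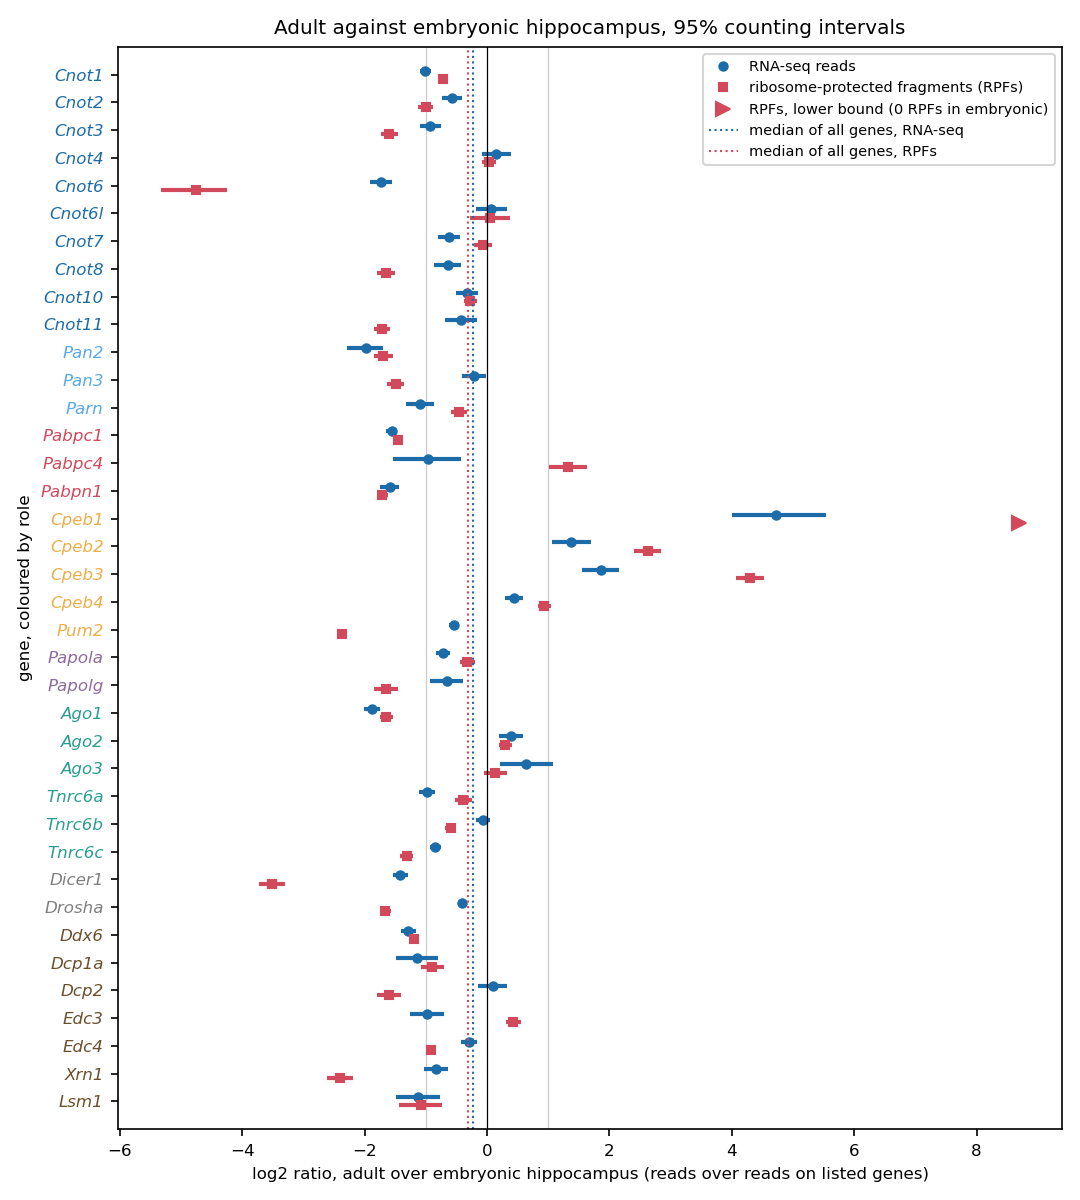
Log2 ratio of adult over embryonic hippocampus for each member, from RNA-seq reads (blue circles) and RPFs (red squares), each divided by the reads on listed genes, with 95% counting intervals as bars and the all-gene medians dotted. The CPEB genes lie right of 0, most other members left of it, and Cnot6 and Dicer1 show RPFs far to the left of their RNA.

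Of the members, 28 could be compared for translational efficiency (TE, log2 of RPF RPM over RNA-seq RPM, for genes at 10 RPM or more in RNA-seq). None was at least 2-fold higher in the adult (background 15.8% of 5431 genes) and 7 were lower (background 7.66%). Cpeb1, Cpeb2, Cpeb3 and Pabpc4, the members called higher in RPFs, were not among the 28. They missed the cutoffs for TE, so that these counts leave out the members whose RPFs exceeded their RNA most in the adult. The member median was −0.00 against 0.22 for all genes. The widest was Cnot6, a catalytic subunit of CCR4–NOT, with 31 RPFs in the adult and 897 in the embryo (27.0-fold lower) and a TE difference of −2.75 ± 0.28 (counting SE). Its paralog Cnot6l had 154 and 159 RPFs and a TE difference of 0.26. How sequencing reads that fit both paralogs were assigned is not given in the sources used here. Dicer1 had 197 against 2400 RPFs (11.4-fold lower) and a TE difference of −1.82 ± 0.12, and Pum2 had 1792 against 9915 and −1.56 ± 0.05. Dcp2, the decapping enzyme, and Xrn1, the 5′-to-3′ exonuclease, differed by −1.42 ± 0.15 and −1.30 ± 0.14, and Cnot11 and Pan3 by −1.01 ± 0.15 and −1.0 ± 0.12, at the limit of the call. Drosha, at −0.99, fell just short of it.

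A list of 79 further genes of tail and decay biology, such as exosome subunits, terminal nucleotidyltransferases and cleavage factors, gave 2 higher and 33 lower among 72 compared in RNA, and 8 higher and 6 lower among 45 in TE. Cell makeup moved with age in the same pair. Summed markers of progenitors and newborn neurons were at 1186 RPM in the embryo and 42.7 in the adult, those of oligodendrocytes at 34.9 and 1582, and those of microglia at 54.7 and 265, with 1 of 5 oligodendrocyte markers at 0 in the embryo. Their part in the differences of the members was not tested. For tails, no member had 50 tags in both hippocampi, so none was compared (backgrounds 1.18% longer and 50.3% shorter of 169 genes).

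TE was also read within each sample, as the percentile of a member among all genes that passed the cutoff. In the tissues the members had medians below the middle, which describes single libraries and carries no test. Their median percentile was 35.7 in embryonic hippocampus (33 members), 24.0 in adult hippocampus (31) and 19.8 in adult cortex (26), against 43.1 to 58.3 in the 7 cultures. The share below the median gene was 57.6%, 61.3% and 69.2% in the same tissues, each from 1 library. Binomial intervals of these shares, which take the members as independent draws, were 39.2% to 74.5%, 42.2% to 78.2% and 48.2% to 85.7%. All of them included an even split. Genes of 1 library are not replicates of a tissue, so these intervals decide nothing about the tissues. The number of members with a value was between 13 and 22 in the cultures, where fewer reached 10 RPM, so that these medians are over different members.

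Individual members held stable places or moved. Edc4, the scaffold of the decapping complex, stood between the 76.0 and 97.6 percentile in all 10 samples. Cnot7, which was among the most abundant mRNAs, was at 2.67 to 17.9 in the cultures and at 14.9, 29.0 and 14.7 in embryonic hippocampus, adult hippocampus and adult cortex. Cnot6 was at 7.95, 0.54 and 0.88 in those tissues. Pum2 was at 55.6 in embryonic hippocampus, 9.74 and 5.40 in the adult tissues and 10.5 to 26.0 in the cultures.

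Other members stood apart between tissue and culture. Cpeb4 was at 21.6, 37.3 and 36.6 in the tissues and at 64.5 to 93.6 in 6 cultures. Dicer1 was at 15.8, 1.75 and 3.27, then at 35.7 to 69.6 in 6 cultures. Tnrc6c was at 13.5, 9.05 and 5.74, then at 15.1 to 58.3. For each of these 3 genes the tissue and culture ranges did not overlap, which describes single libraries and carries no test. The share of all genes that separate in this way was not computed, so whether the members stand out is not known. Pabpc1 was the exception among tissues, at 19.5 and 22.9 in the hippocampi, 84.9 in adult cortex and 85.1 to 98.3 in 6 cultures. The hippocampi were the poly(A)-selected RNA samples, and the preparation and the tissue cannot be told apart for this gene. The same limit holds for the hippocampal values of the 3 genes above.

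**Figure D3:**
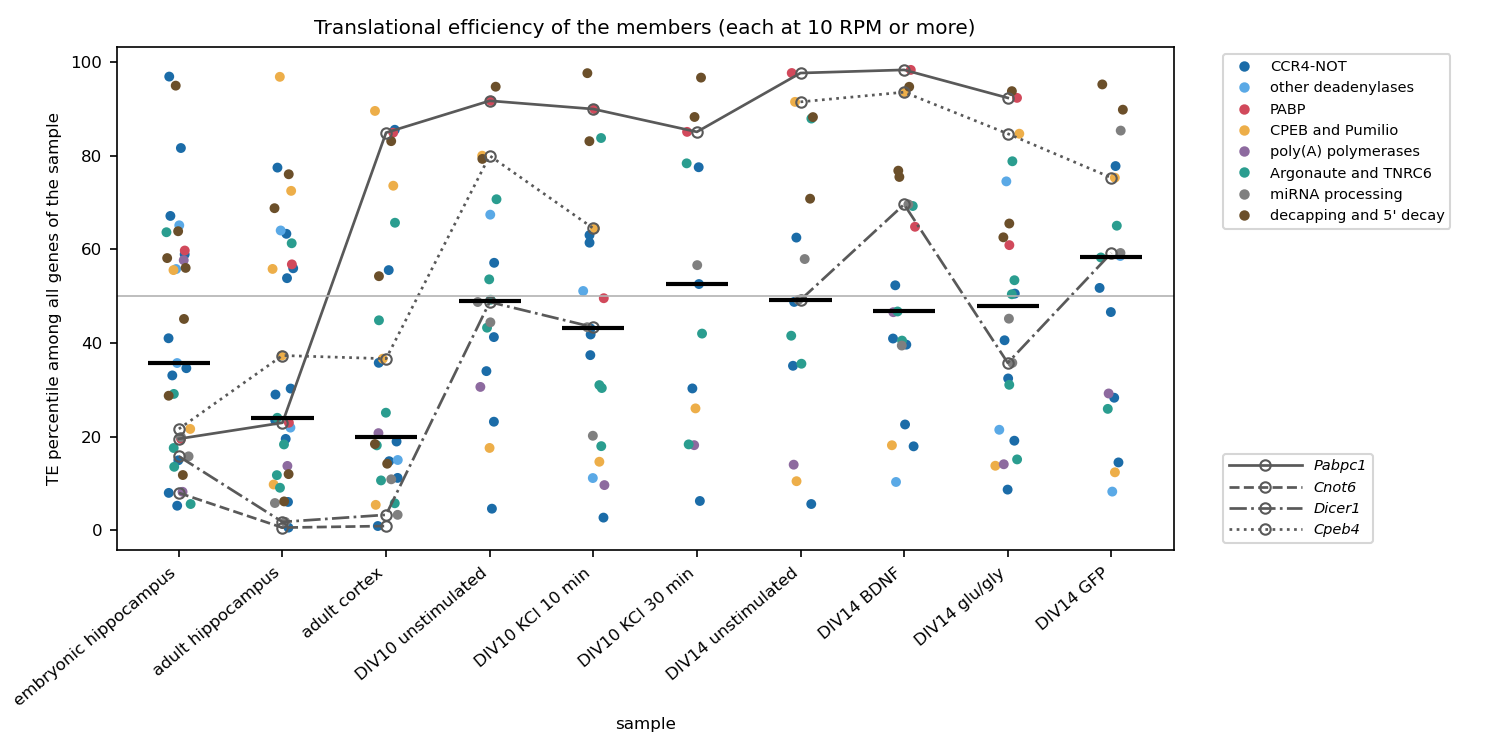
TE percentile of each member (points, coloured by role) among all genes of the same sample, for the 10 samples with matched RNA-seq and ribosome profiling, with black bars at the member median and grey lines joining Pabpc1, Cnot6, Dicer1 and Cpeb4. The medians are lowest in adult cortex (19.8) and adult hippocampus (24.0), and Pabpc1 is low only in the 2 hippocampi.

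Adult cortex was set against the unstimulated DIV14 culture to ask how cultured cortical neurons differ from the tissue. In RNA-seq 9 of 37 members were at least 2-fold higher in cortex (background 15.2% of 9915 genes), of which 4 were the CPEBs, and 1 was lower (background 18.4%). Cpeb2 had 140 and 11 reads in cortex and culture (3.79-fold, 2.05 to 7.76), Cpeb3 135 and 13 (3.09-fold, 1.75 to 5.96), Cpeb1 62 and 6 (3.08-fold, 1.34 to 8.70) and Cpeb4 279 and 39 (2.13-fold, 1.52 to 3.06). Cpeb1 also had more RPFs, 296 against 75, while Cpeb2 (765 and 426 RPFs) had a log2 ratio of 0.05 once scaled to library size. In all, 3 members were higher in RPFs (background 11.8%) and 3 lower (background 11.6%). Ago3 had 84 and 2 reads, a ratio of 12.5 with a wide interval of 3.36 to 105, and its RPFs, 154 and 30, had a log2 ratio of 1.57.

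The other members that were higher in cortex were Tnrc6b (2.36-fold, 1.66 to 3.46), the ubiquitin ligase Cnot4 (2.35-fold, 1.17 to 5.35), Xrn1 (2.15-fold, 1.32 to 3.67) and Ago2 (2.06-fold, 1.2 to 3.82). Lsm1 was 2.24-fold lower (1.11 to 4.39), a call lost under every alternative. Counted from tail tags, the members called higher were Cpeb1 and Cnot6l only. The median log2 ratio was 0.44 for members and −0.23 for all genes.

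The median log2 ratio of RPFs was −0.07 both for members and for all genes. TE has RNA in its denominator, and of 15 members compared, 7 were at least 2-fold lower in cortex (background 12.4% of 4086 genes) and none higher (background 6.02%). The largest differences were those of Dicer1 (−1.96 ± 0.31 counting SE), Tnrc6b (−1.67 ± 0.27) and Cpeb4 (−1.58 ± 0.26), followed by Tnrc6c (−1.39 ± 0.28), Drosha (−1.34 ± 0.23), Pabpc1 (−1.11 ± 0.33) and Cnot1 (−1.07 ± 0.16). Dicer1 had about as much RNA in both, with a log2 ratio of −0.01, and fewer RPFs in cortex, 109 against 238. Of the 79 further genes, 4 were higher and 12 lower in RNA of 63 compared, and 1 higher and 4 lower in TE of 32. Summed oligodendrocyte markers were at 1956 RPM in cortex and 64.9 in the culture, with 3 of 5 at 0 in the culture, and microglial markers at 244 and 15.7. Astrocyte markers went the other way, at 835 RPM in cortex and 1513 in the culture. The part of these cell types in the differences was not tested.

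Tails of 6 members had 50 tags in both samples, and 5 were at least 10 nt shorter in cortex (background 62.4% of 2663 genes, and 0.601% longer). They were Cpeb4 (83.8 nt against 106), Cnot6 (95 against 113), Cnot7 (81.2 against 99.5), Pum2 (85.7 against 103) and Ddx6 (85.3 against 101). The median difference was −17.8 nt for members and −12.4 nt for all genes, and centred on that shift none of the 5 was called.

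Across the cortex and the cultures, tails differed among roles. Because few members had 50 tags in a sample, the tags of each role were pooled and averaged. The pooled tags of the 3 PABPs had shorter tails than all genes in 10 of 10 samples, with a median over the cultures of 82.5 nt against 103 nt, from 24 to 80 tags per sample. In the unstimulated DIV14 culture the cytoplasmic PABPs stood at 81.6 nt (Pabpc1, 25 tags) and 56.7 nt (Pabpc4, 18 tags), and nuclear Pabpn1 at 119.9 nt (37 tags). The pooled Argonaute and TNRC6 tags had longer tails in 10 of 10 samples, with a median of 119.5 nt and 74 to 202 tags. In the same culture Tnrc6c stood at 151.8 nt (40 tags), Tnrc6b at 139.0 (54), Ago1 at 137.3 (55) and Tnrc6a at 125.9 (47), against 111.1 nt for all genes. The other deadenylases were also longer in 10 of 10, at 128.7 nt, but from only 16 to 61 tags. CCR4–NOT mRNAs stood at 98.5 nt and were longer than all genes in 1 of 10. The samples share protocol and base caller, so that 10 of 10 is a description, not a test.

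**Figure D4:**
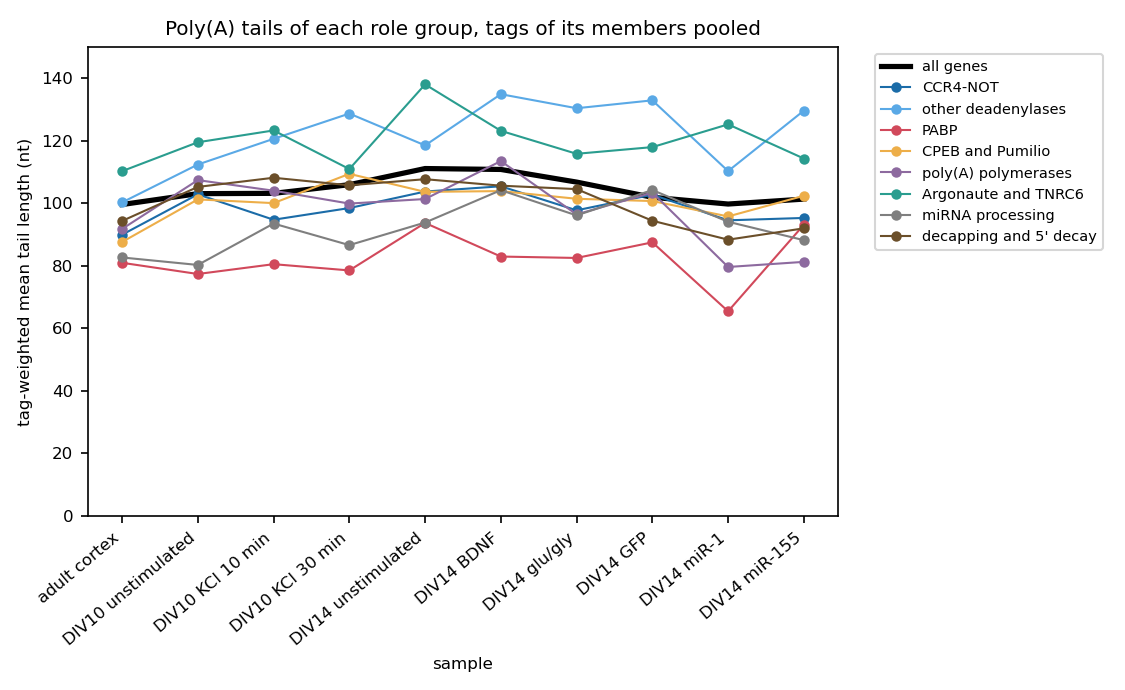
Tag-weighted mean poly(A)-tail length in nt of each role group (coloured lines) and of all genes (black) in the adult cortex and 9 cultures measured with TAIL-seq. PABP mRNAs lie below the black line in all 10 samples, and the Argonaute and TNRC6 group lies above it in all 10.

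Some members left few tags although their mRNA was sequenced. Over the cortex and cultures all genes, pooled, gave 72.4 tags per 100 RNA-seq reads. The median of the ratios of single members was 46.4, which is not the same measure. Reads were not divided by coding length here, whose median was 2205 nt for members and 1344 nt for all genes, with 402 nt for Lsm1. Xrn1 gave 1 tag for 450 reads, Ago3 4 for 181, Ago2 38 for 421 and Cnot3 7 for 74, whereas Lsm1 gave 670 for 323. Ago1, with nearly the same coding length as Ago2 and Ago3, gave 311 tags for 435 reads. The source of these differences was not tested, and the tails of Xrn1 and Ago3 could not be described.

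Few members were called after short stimuli. BDNF for 30 min gave 0 higher and 0 lower of 29 in RNA (backgrounds 1.08% and 1.45%) and 0 of 15 in TE (backgrounds 0.0638% and 0.723%), while summed immediate-early markers (Fos, Arc, Npas4, Egr1, Nr4a1) went from 62.9 to 1362 RPM. RPFs gave 0 of 38 members in either direction (backgrounds 0.673% higher and 2.64% lower). Tails of Tnrc6b and Cnot11, of 13 members compared, were 23.5 nt and 19.4 nt shorter than in the unstimulated culture (background 9.03%, and 6.27% longer), from 61 against 54 and 63 against 50 tags.

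With glu/gly, 2 of 31 members were higher in RNA (background 2.4%) and none lower (background 1.94%), and both were Argonautes. From tail tags 0 of 30 members were called, but Ago2 had only 38 tags over the cortex and all cultures. At 100 reads over the pair 0 of 10 were called. Neither Argonaute had that many reads, so this cutoff could not call them. Ago2 had 46 reads against 15 (2.59-fold, 1.42 to 5.0) and Ago1 36 against 14 (2.17-fold, 1.14 to 4.36). Their RPFs did not follow, at 261 against 429 for Ago2 (log2 ratio −0.09) and 131 against 188 for Ago1 (0.10). Tnrc6b (−1.37 ± 0.31) and Pabpc1 (−1.06 ± 0.40) of 15 members had lower TE (background 4.1%, and 0.0634% higher), of which Tnrc6b stayed called when centred on the median gene. In RPFs Pabpc4 was the member called, 7 against 27 (2.5-fold lower), with none higher (backgrounds 2.15% and 0.567%). Tnrc6b tails were again shorter, by a difference of −20.6 nt, and Lsm1 tails longer by 13.3 nt, of 7 compared (backgrounds 20.2% and 2.79%). Both stimuli were set against the same unstimulated culture, so the shorter Tnrc6b tails in each rest on 1 control library with 54 tags.

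After 10 min of KCl, 5 of 18 members were lower in TE and none higher, with backgrounds of 14.9% and 0%. They were Papola (−1.64 ± 0.25), Cnot7 (−1.52 ± 0.27), Tnrc6c (−1.36 ± 0.24), Drosha (−1.26 ± 0.22) and Ago1 (−1.05 ± 0.36), at an all-gene median of −0.41. Centred on that median, Papola and Cnot7 remained. Papola, the main nuclear poly(A) polymerase, had 168 RPFs against 615 with 69 reads against 135, and Ago1 had 132 RPFs against 480, the 2 members called lower in RPFs (background 5.72%), with none higher (background 1.18%). In RNA only Dcp1a differed, with 12 reads against 10 in a deeper library (2.69-fold, 1.07 to 6.96; backgrounds 0.71% higher and 1.41% lower of 36 members compared).

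After 30 min of KCl the TE of 1 of 13 members differed, Cnot1, which was higher by 1.00 ± 0.17 (background 8.26%, and 1.78% lower), a call lost when centred on the all-gene median of 0.32. Cpeb3 was the 1 member of 36 that was lower in RNA, with 7 reads against 29 (2.79-fold, 1.2 to 7.55; background 6.16%, and 2.26% higher). Scaled with the authors' RPM, 6 were lower, all 4 CPEB genes among them, whereas from tail tags none was lower and Cpeb2 was higher. Ago1 again had fewer RPFs, 72 against 480, a log2 ratio of −1.10, with 56 reads against 76, and was the member called lower in RPFs (background 5.11%, and 1.34% higher). Of 5 tails compared at each time, Cnot8 was shorter at both (−21.5 and −10.8 nt, with backgrounds of 7.59% and 4.23%), Ddx6 was longer at 10 min (10.2 nt, background 7.79%) and Pum2 at 30 min (10.1 nt, background 11.8%), the last of which was lost when centred. Both times share the unstimulated DIV10 library. Of the 79 further genes, at most 1 passed in RNA in each direction in any stimulus.

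Few members were called in the lentivirus cultures. In the GFP culture 0 of 29 members passed in RNA (backgrounds 1.26% higher and 2.41% lower) and 0 of 38 in RPFs (0.933% and 3.92%), Drosha was the 1 of 14 higher in TE (1.01 ± 0.35, backgrounds 1.33% and 0.327% lower) and Ddx6 the 1 of 4 with shorter tails (−16.7 nt, background 40.4%, and 0.7% longer). Neither of these calls held when centred on the median gene. In the miR-1 culture 0 of 32 members differed from GFP in RNA (backgrounds 1.56% and 2.87%). In the miR-155 culture 1 of 36 did (backgrounds 1.35% and 1.93%), Pan2, with 29 reads against 1, a ratio of 6.15 with an interval of 1.02 to 251. No member's tail differed by 10 nt in either miRNA culture, of 3 compared in each (backgrounds 5.09% and 14.9% for miR-1, 6.79% and 8.47% for miR-155).

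The members with a miR-155 match, shown above, were read in the miR-155 culture against GFP. Their median log2 RNA change was −0.26, with 4 of 5 below 0, against −0.01 for the 31 members without a match. Counted from tail tags the sign turned, with a median of 0.14 over 4 members with a match, 2 of them below 0, and 0.01 over 22 without. Over all genes the medians were −0.18 for 1398 with a match and 0.03 for 8480 without, and from tail tags −0.16 and 0.02. Papola, with its pair of 7mer matches, had the one interval below no change, a fold of 0.65 (0.468 to 0.916) from 150 reads against 49. Dcp2 (log2 change −0.81, 51 against 19 reads), Cnot6l (−0.26) and Tnrc6b (−0.24) were lower within counting error. Cnot4, which holds the 8mer, went the other way at 0.80 from 41 against 5 reads, with a fold interval of 0.688 to 5.64. None of the 5 reached a 2-fold call.

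The visual cortex of 8 mice gave the one replicated comparison, of light for 1 h against darkness, and was tested over tags with edgeR's quasi-likelihood test and over mean tail length with limma, both with Benjamini–Hochberg adjustment. One member was called in level. Tnrc6c was higher in light, by 0.79 ± 0.16 (SE) on the log2 scale or 1.73-fold (adjusted p = 0.00644). Normalized tags (CPM) were 25.3, 32.8, 35.3 and 36.8 in the dark mice and 66.1, 50.05, 55.7 and 54.4 in the light mice, with means of 32.6 ± 5.11 and 56.6 ± 6.79 (SD, n = 4 each). All 4 light mice lay above all 4 dark mice. Of 9554 genes tested, 116 were higher (1.21%) and 12 lower (0.126%), and groups did not overlap in 3.13% (higher) and 2.54% (lower) of genes. TNRC6C is a scaffold of the miRNA-induced silencing complex that binds Argonaute, PABP and CCR4–NOT.

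Of the other 37 members, 31 were tested and not called, and Cnot3, Pan2, Pabpc4, Ago2, Ago3 and Xrn1 had too few tags. At an unadjusted p below 0.05 there were 5 members of 32, against 9.45% of all genes. These 5 include Tnrc6c, and the other 4 overlapped between groups. Cpeb4 stood at 126 ± 14.4 CPM in the dark and 160 ± 25.6 in light (log2 0.36 ± 0.12, adjusted p = 0.244 by edgeR), with the light mouse 1 at 124.7, below dark mouse 1 at 125.2. Cpeb3 stood at 13.6 ± 5.87 and 23.6 ± 9.13 (0.69 ± 0.30, adjusted p = 0.463 by edgeR), from 8 to 99 tags a mouse. Edc4 went the other way, from 49.9 ± 7.43 to 35.6 ± 4.36 (−0.48 ± 0.16, adjusted p = 0.237 by edgeR), and Drosha stood at 102 ± 7.60 and 122 ± 12.5 (0.25 ± 0.11, adjusted p = 0.485 by edgeR). Ddx6 and Pum2 had the most tags of all members, with narrow errors. Ddx6 stood at 384 ± 25.5 and 391 ± 36.9, a log2 difference of 0.03 ± 0.09, and Pum2 at 334 ± 38.2 and 311 ± 12.7, −0.10 ± 0.10. The member median was 0.04 and that of all genes −0.00. None of the 64 further pathway genes tested was called.

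Summed immediate-early markers separated the groups, at 166 to 723 CPM in the dark and 2599 to 4656 in light, with dark mouse 4 the highest of the dark mice. The sums of marker lists of other cells overlapped between groups, such as oligodendrocytes at 754 to 1259 and 502 to 920 CPM. Within the progenitor list, Hes5 was at 32.2 to 43.7 CPM in the dark and 8.94 to 26.1 in light, without overlap. Of all genes tested, 2.54% were lower without overlap. Mki67 had 1 tag in each dark mouse and 0 in each light mouse. Sox2 (82.3 to 103 and 90.7 to 120 CPM), Dcx (8.05 to 12.5 and 10.1 to 14.8) and Top2a (0 to 4.79 and 1.19 to 2.43) overlapped. The part of these genes in the results was not tested.

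Tails of 14 members had 50 tags in every mouse, and 0 were called in either direction (backgrounds 0.231% higher and 0% lower of 4321 genes by limma, 10 genes in all). At an unadjusted p below 0.05 there was 1 member, against 3.93% of all genes. It was Cpeb4, whose tails averaged 79.4, 82.5, 66.7 and 67.7 nt in the dark mice and 79.5, 91.1, 99.4 and 83.4 nt in the light mice, a difference of 14.3 ± 6.68 nt (SE, adjusted p = 0.999 by limma) with groups that overlapped. Next were Cnot6l (73.4 ± 15.3 to 85.6 ± 9.40 nt, difference 12.1) and Cnot6 (78.6 ± 7.62 to 90.4 ± 13.2 nt, difference 11.7). The median over members was 7.64 nt, beside 3.75 nt over all genes, and limma gave each gene the same standard error. Pabpc1 had the shortest tails of any member in this tissue, at 22.1 ± 6.08 nt in the dark and 16.8 ± 6.90 nt in light, from 9 to 45 tags a mouse. Pooled Argonaute and TNRC6 tails stood at 91.9 ± 14.4 nt in the dark and pooled PABP tails at 69.7 ± 6.40 nt, against 85.4 ± 7.31 nt for all genes. The Argonaute and TNRC6 tails lay below those of all genes in dark mouse 4 (78.7 against 80.4 nt) and light mouse 4 (76.2 against 82.0 nt).

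**Figure D5:**
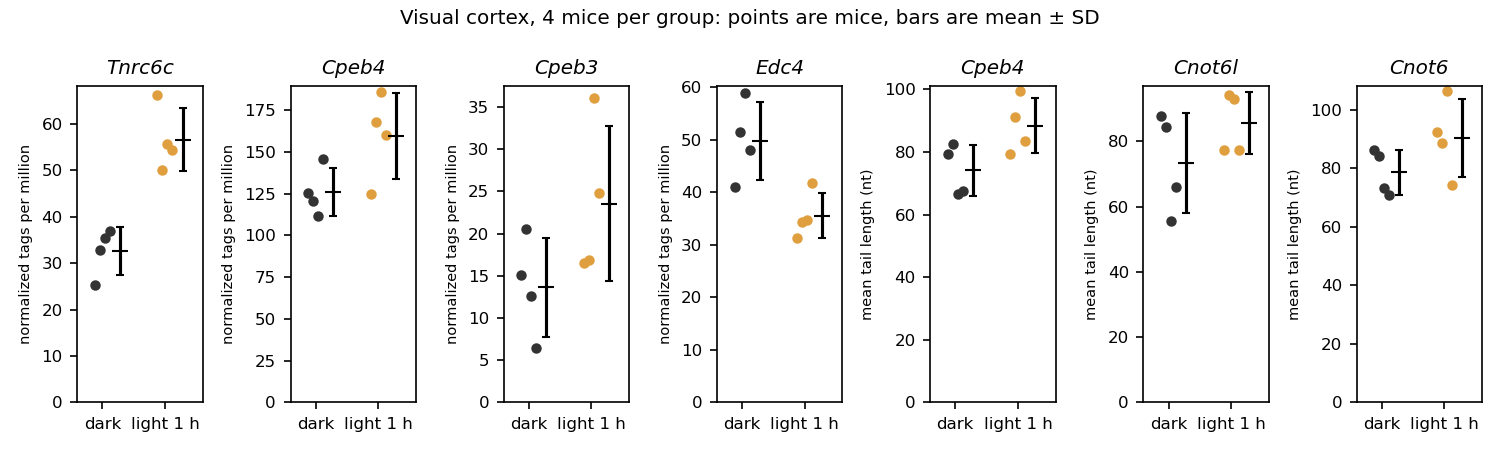
Visual cortex of 4 dark mice (dark points) and 4 mice in light for 1 h (yellow points), with mean ± SD beside them: normalized tags (CPM) for Tnrc6c, Cpeb4, Cpeb3 and Edc4, and mean tail length in nt for Cpeb4, Cnot6l and Cnot6. Only the Tnrc6c groups do not overlap, with dark mice at 25.3 to 36.8 and light mice at 50.05 to 66.1.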

How the data were processed

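The authors deposited, for each RefSeq accession, a read count with its RPM for RNA-seq and ribosome profiling, made from open-reading-frame reads of the longest transcript past the first 50 nt. Tail files held, as deposited, tags (a count) and their poly(A) length. Lengths are means of tags, except in the hippocampi, where they were taken as medians because all values are multiples of a 0.5-nt step. The submitters' processing notes name STAR 2.4.2 and bedtools. The deposited log2 TE served as an alternative, and 50 columns of a combined table were not used. Symbols and sequences came from RefSeq GRCm38. Its coding lengths minus 50 nt equal the deposited lengths for 98.7% of 16680 genes.

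Members, role groups and lists were chosen with earlier results of these data known. Named genes were, per role, the highest and lowest in the unstimulated DIV14 culture, those past a call, those with the smallest p in light and those with a miRNA match. Calls between single libraries needed a 2-fold ratio with a Clopper–Pearson interval (95%) that excludes no change, at 20 reads over the pair, scaled by reads on listed genes. TE calls needed a 2-fold difference, and tail calls 10 nt at 50 tags in both. The RPF calls were added after the data were seen. Mice were compared with edgeR 4.0.16 (TMM, filterByExpr, quasi-likelihood) and limma 3.58.1 in R 4.3.3, with light as the only term, and with DESeq2 1.42.0 as an alternative. Pair calls and both tests were tested on simulated data. Intervals of ratios between single libraries cover counting error only, since reads carried no molecular identifiers. Those of the shares of members below the median gene are binomial over genes. No source ties mouse numbers across groups, and the p-values measure the spread between these mice. Of 44 samples, 2 had contradictory labels and stayed unassigned.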

Additional observations from a re-analysis of the deposited data

How the results depend on the processing

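Tnrc6c remained higher in light under every alternative run for expression: DESeq2, other size factors, no filter, the replicate block and leaving out each mouse in turn, which gave 0.71 to 0.85 on the log2 scale (adjusted p from 0.00781 to 0.0371 by edgeR's quasi-likelihood test). The mouse numbers name different mice and did not pair them, with correlations of −0.20 to 0.03 between same-numbered mice in expression and −0.11 to 0.04 in tails, and no number correlated best with itself. With the replicate block, 103 genes were higher and 10 lower in light and Tnrc6c stood at 0.78, and in tail length 1 gene was higher. Leaving out 1 mouse gave 94 to 130 genes higher and 6 to 20 lower (6 without light mouse 3, 20 without light mouse 4), and no filter gave 30 lower. For tails, 5 genes were higher at 20 tags, 1 on the log2 scale, 3 when centred on the median gene and 0 by exact permutation, whose smallest possible p of 0.0286 is too large to pass adjustment, 3 were lower at 20 tags, and leaving out 1 mouse gave 1 to 21 higher (21 without light mouse 4, and 1 or 2 without dark mice 2 to 4 or light mice 2 and 3) and 0 to 6 lower (6 without dark mouse 1, 1 without light mouse 3). Members called in tails stayed at 0 in all of these other than the permutation test, which could call none, and the differences of Cpeb4, Cnot6l and Cnot6 ran from 10.6 to 17.2, from 6.14 to 16.9 and from 6.39 to 17.1 nt as mice were left out.

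Counts over single libraries moved more. Against 11 members lower in adult hippocampus, 18 were lower with the authors' RPM, 7 centred on the median gene and 5 from tail tags, of which Cnot6 and Lsm1 were among the 11, while Cpeb1, Cpeb2 and Cpeb3 remained higher in all but the last, where Cpeb2 and Cpeb4 were. The centred median shift is the all-gene value of −0.23 given above. For RPFs of this pair, alternatives added after the data were seen gave 4 or 5 higher and 16 or 19 lower. In cortex against culture, 2 were higher from tail tags, and none was lower with the authors' RPM, centred, at 100 reads or from tail tags. Over the 7 culture pairs together, none was higher at 100 reads, and 8 were lower with the authors' RPM, 0 at 100 reads and 3 from tail tags. At a cutoff of 30 RPM the TE counts were 2 lower in hippocampus, 1 in cortex and 0 in either direction in the cultures, where centring left 0 higher and 3 lower. At 20 tags the tail counts were 1 higher and 1 lower in hippocampus, 16 lower in cortex, and 14 higher and 34 lower in the cultures. At 100 tags they were 2 lower in cortex and 0 and 0 in the cultures, and centring left 0 lower in cortex. The share of members below the median gene became 76.2% in embryonic hippocampus, 80.0% with glu/gly and 100% after 30 min of KCl (1 member) at 30 RPM. With 8mers alone the miR-155 median was 0.80, from Cnot4. Higher cutoffs left fewer members to compare, and the cause of the other shifts was not tested. The miR-1 site search was not run, because its mature sequence was not among the sequences used here. The remaining 200 values met the rule for being the same, which differed between results. Counts had to be equal or within a set ratio, and genes named in light had to keep their sign and significance. The miR-155 median had only to move by less than the spread of members. The rule thus did not require a close value for a gene, or the same sign for that median.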

Other observations

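The ribosome-profiling libraries whose labels name miR-1 and miR-155 in contradiction were assigned to no group. Their members' summed RPFs were 2375 and 2468 RPM.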
